A study of Equus caballus with 19 samples.

Results

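The genes described here are 10 genes of the interleukin-1 (IL-1) system as transcribed by tenocytes, the fibroblast-like cells of tendon, from the equine superficial digital flexor tendon. They comprise the ligand genes IL1A, IL1B and IL18, the antagonist gene IL1RN, the receptor genes IL1R1, IL1RAP, IL1R2 and IL1RL1, and the signalling inhibitor genes IRAK3 and SIGIRR. They form a fixed list of gene symbols, put together with earlier results of these data known, and all 10 were among the 29196 gene names of the count tables. The data were 19 RNA sequencing libraries of wild-type adult tenocytes from 8 lines, each line being the cells of 1 horse taken after death and grown in serum-containing medium. Every library came from cells embedded in a 3D gel of bovine type 1 collagen and harvested at day 14. In the first batch, lines 1 to 5 were cultured without additions (control) or with 1 nM IL-1β, giving 10 libraries. In the second batch, lines 6 to 8 were cultured as control, with 1 nM IL-1β, or with 1 nM IL-1β and 100 ng/ml of the IL-1 receptor antagonist IL1Ra (IL-1β + IL1Ra), giving 9 libraries. IL1Ra alone was not among the conditions, and the added IL-1β and IL1Ra were proteins, which contribute no reads to the genes that encode them.

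IL-1α and IL-1β bind the receptor encoded by IL1R1, which then recruits the accessory protein encoded by IL1RAP and signals through the adaptor MyD88 and the IRAK kinases to NF-κB and the MAP kinases. The pathway is braked at several levels. IL1RN encodes IL1Ra, which occupies the receptor without signalling, IL1R2 encodes a decoy receptor that lacks a signalling domain, SIGIRR is an inhibitory receptor of the same family, and IRAK3 (IRAK-M) is an inhibitory member of the IRAK family. In tendon, IL-1 is known as a cytokine of injury that acts on the resident tenocytes, so the comparisons ask how tenocytes kept with IL-1β until day 14 transcribed the ligands, receptors and brakes of that same pathway, and how this stood when the receptor was blocked.

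Levels are given as normalised counts, that is, read counts per gene divided by the authors' factors for sequencing depth, which may also carry a correction for transcript length, and these summed to between 43393903 and 49197980 per library of the first batch, and to between 24964149 and 34602014 per library of the second. Log2-fold changes are differences of log2(normalised count + 1) fitted with limma, adjusted p values are Benjamini-Hochberg values over all genes tested in a batch, and a gene was differentially expressed (DE) with an adjusted p below 0.05 and a log2-fold change of at least 1 in either direction. Genes were tested where at least 5 libraries of the first batch, or 3 of the second, reached 10 normalised counts. This left 8 of the 10 genes in each batch, with IL1RN and IL1RL1 too low. Of the tenocyte markers, COL1A1 ranged from 89921 to 875669 normalised counts over the first batch, the transcription factor genes SCX and MKX were also above the minimum count, and TNMD was at 0 in each library except 1, a control of the second batch.

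With IL-1β, both IL-1 ligand genes went from almost no reads to between 53.2 and 2385 normalised counts in all 5 lines of the first batch, and IL18, IL1R2 and IRAK3 rose, with log2-fold changes of 1.28 to 1.62. SIGIRR fell by 1.20 on the log2 scale. The genes of the signalling receptor itself, IL1R1 and IL1RAP, did not pass the test, and IL1RN, the gene of the natural antagonist, stayed below 6 normalised counts in every library. Thus 6 of the 8 tested genes were DE, 5 upregulated and 1 downregulated, where 12.8% of all 14719 tested genes were DE (4.91% upregulated and 7.9% downregulated). The count was also 6 in a fit blocked on the line, where 16.2% of all tested genes were DE, and 7 of the 8 had an unadjusted p below 0.05, as did 39.5% of all tested genes. The median log2-fold change of the 8 was 1.42, against -0.0034 for all tested genes. Setting IL1B at its lower bound (at least 79.0-fold) could not move this median, because IL1B stays well above the middle genes. IL1B passed the minimum count through its IL-1β libraries alone, and IL1A and IL1R2 had only 1 control each among the libraries that passed. Their place in that count of DE genes and in the median was thus given by their height with IL-1β.

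**Figure D1:**
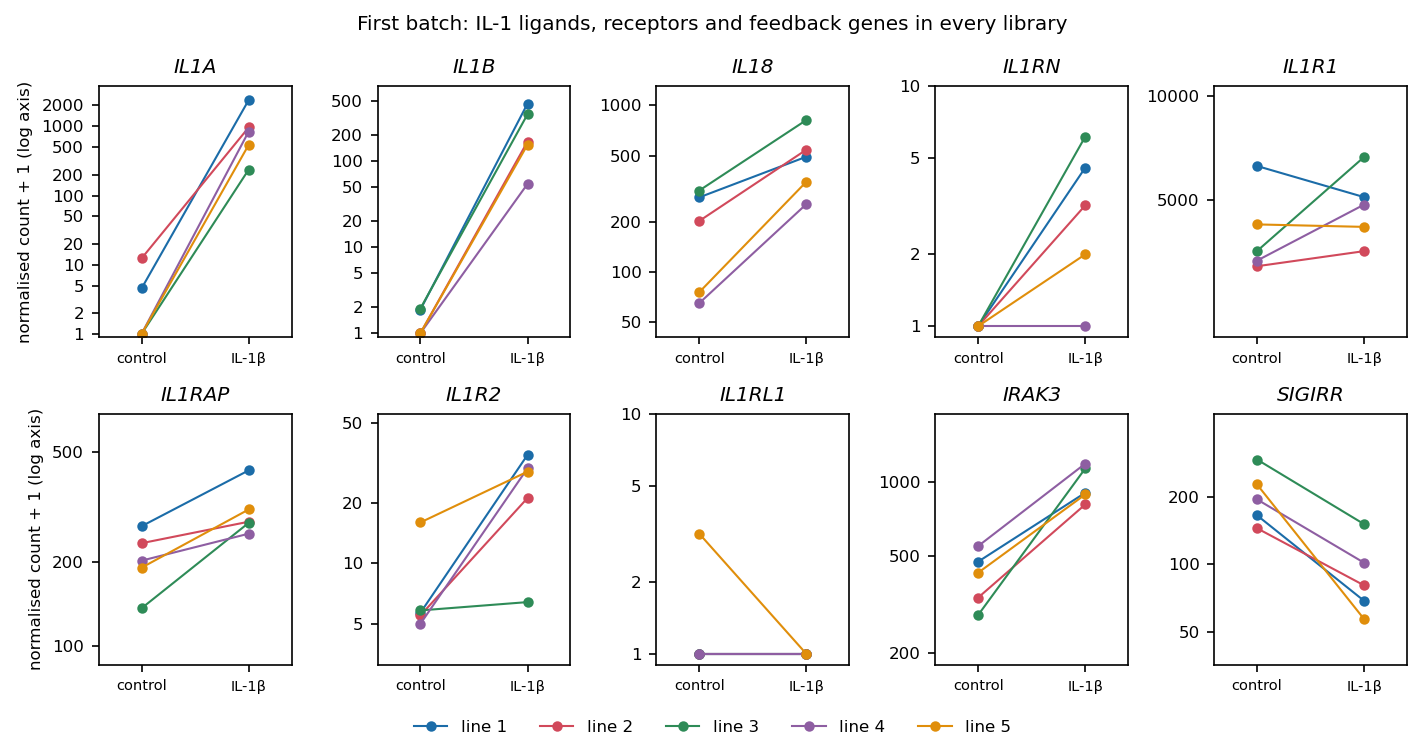
Normalised counts + 1 (log axis, scaled separately for each gene) of the 10 IL-1 system genes in the first batch, control on the left and IL-1β on the right. Each point is a library and each line joins the libraries of 1 tenocyte line; IL1A and IL1B climb in 5 of 5 lines, IRAK3 rises without overlap, SIGIRR falls in 5 of 5 lines and IL1R1 moves in both directions.

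IL1A, which encodes IL-1α, was counted at 3.55, 11.3, 0, 0 and 0 in the control libraries of lines 1 to 5 and at 2385, 962, 235, 837 and 538 in their IL-1β libraries. The lowest IL-1β library was far above the highest control library. IL1A rose by a log2-fold change of 8.40 (SE 0.83, 95% confidence interval 6.57 to 10.23, adjusted p = 0.000118), the 14th largest rise among 14719 genes. The control mean of 2.98 lay below a floor of 3 counts per library, of which the IL-1β mean of 992 was 331 times, and the fitted value moved from 9.04 to 6.75 as the pseudocount went from 0.5 to 5. Within a line the log2 ratio ran from 6.29 in line 2, the control with the most IL1A reads, to 9.71 in line 4. Fewer cells of a type and less RNA per cell cannot be told apart in such bulk libraries.

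IL1B, which encodes IL-1β itself, had 0.877, 0, 0.934, 0 and 0 normalised counts in the control libraries and 463, 167, 348, 53.2 and 154 with IL-1β. No control library reached 1 count, and the groups did not overlap. The mean with IL-1β was at least 79.0-fold above a floor of 3 counts per library, and the fitted log2-fold change was 7.17 (SE 0.56, adjusted p = 3.23e-05). Line 4 had the least IL1B of the 5 lines with IL-1β, although its IL1A was the median of the 5.

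The count tables held a further row named IL1B_1, whose relation to IL1B is not stated. In the TB-T2T assembly, which is newer than the one used for counting, RefSeq gives the synonym IL1B to 2 loci that lie next to each other beside IL1A, and how reads of near-identical copies were divided between the rows is not known. In the controls of lines 1 to 5, IL1B_1 had 0 to 2.61 normalised counts, as against 983, 539, 515, 236 and 326 with IL-1β, and in each IL-1β library it took the larger share. The row IL1B held 18.4 to 40.3% of the sum of both rows in the IL-1β libraries of the first batch and 6.06 to 24.6% of it in those of the second. Summed, the rows came to 757 ± 443 normalised counts with IL-1β (SD, n = 5) and 1.33 ± 1.07 in control (SD, n = 5), at least 252-fold above the floor of 3 counts per library. The sum rose by a log2-fold change of 8.28 (SE 0.49, adjusted p = 4.94e-06), so that the call for IL1B did not depend on the division, while its level did.

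**Figure D2:**
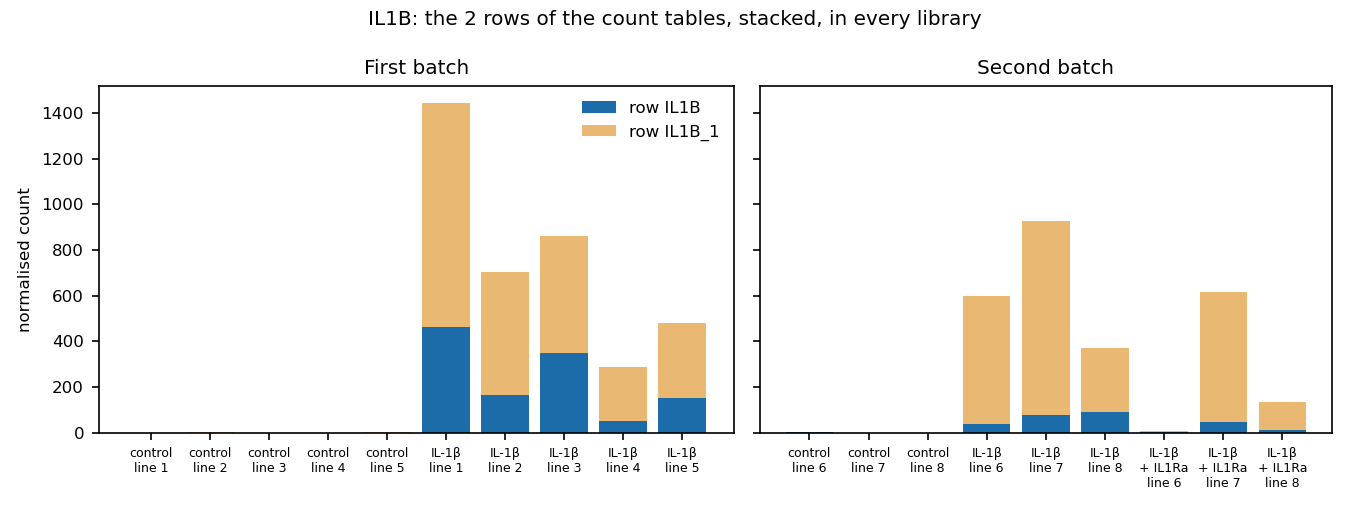
Normalised counts of the 2 rows, IL1B (blue) and IL1B_1 (yellow), stacked in each library of the first batch (left) and the second batch (right). Control bars are too low to see, IL1B_1 is the larger part of every IL-1β bar, and with IL-1β + IL1Ra the bar of line 6 is close to 0 while that of line 7 is still 618.

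IL18, whose product is an IL-1 family cytokine that acts through a receptor of its own, differed in that control cells already transcribed it. Its counts were 279, 201, 307, 64.0 and 74.6 in control and 491, 541, 815, 255 and 347 with IL-1β. Every line was higher with IL-1β, but the groups overlapped, and the lines differed among themselves by a factor of 4.80 in control. IL18 rose by a log2-fold change of 1.56 (SE 0.49, 95% confidence interval 0.47 to 2.66, adjusted p = 0.0381). With line 1, 2, 4 or 5 left out, the adjusted p was 0.057, 0.095, 0.057 and 0.114, and the call was lost.

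IL1RN, the gene of the endogenous antagonist, had no reads in the 5 control libraries and 3.57, 2.18, 5.16, 0 and 0.991 normalised counts with IL-1β. Reads were thus seen in 4 of 5 IL-1β libraries and in 0 of 5 controls, at the edge of detection. A 2-sided exact permutation test of these values, chosen after they were seen, gave p = 0.0476, in a fit without the minimum count the adjusted p was 0.0348, and no fold change is given because both group means lay below the floor of 3 counts. The log2 difference of IL1RN and IL1A was lower with IL-1β in 5 of 5 lines, by a mean of -6.90, which restates the rise of IL1A because both means of IL1RN were below the floor.

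IL1R1, the gene of the signalling receptor, was abundantly counted in all libraries: 6277, 3229.8, 3571, 3352 and 4261 in control and 5106, 3569.8, 6665, 4859.5 and 4192 with IL-1β. The groups lay across each other, and 3 of 5 lines were higher with IL-1β. Its log2-fold change was 0.25 (SE 0.21, adjusted p = 0.403), with a 95% confidence interval from -0.21 to 0.71, which holds no change of 1 log2 unit in either direction.

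IL1RAP, the gene of the accessory chain that IL1R1 needs to signal, was counted at 268, 233, 135, 201 and 190.0 in control and 427, 279, 276, 252 and 309 with IL-1β. All 5 lines were higher with IL-1β, and only the control of line 1 lay within the range of the IL-1β libraries. The log2-fold change of 0.59 (SE 0.22, 95% confidence interval 0.11 to 1.08) did not pass, with an adjusted p of 0.0667. With the line as a block the adjusted p was 0.0189, but the change stayed below 1 log2 unit.

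IL1R2, the gene of the decoy receptor, was sparsely counted, with 4.68, 4.52, 4.84, 4.01 and 15.0 in control and 33.5, 20.1, 5.42, 28.6 and 27.5 with IL-1β. With IL-1β, lines 1, 2, 4 and 5 had 20.1 to 33.5 normalised counts, whereas line 3 stayed close to its control, and line 5 had the only control value above 10. IL1R2 rose by a log2-fold change of 1.62 (SE 0.53, 95% confidence interval 0.44 to 2.79, adjusted p = 0.0445). The call was lost without line 1, 2 or 4 (adjusted p 0.152, 0.136 and 0.160), and without the filter on low counts (0.0645). IL1R2 met that filter in exactly the 5 libraries needed, and not once line 5 was left out.

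The log2 ratio of the decoy to the signalling receptor gene, IL1R2 to IL1R1, was -7.84 ± 1.22 with IL-1β and -9.20 ± 0.74 in control (SD, n = 5 each). It was higher with IL-1β in 4 of 5 lines, by 1.36 on average, and the exact permutation test did not pass (p = 0.0714, adjusted over 8 ratio tests 0.267). Permuted within lines, the exact p was 0.125, where 5 lines can reach 0.0625 at the lowest. The counts were not scaled between genes for their transcript lengths, so the change of this ratio between conditions can be read and the distance between the genes cannot. IL1RL1, which encodes the receptor of IL-33, had 2.17 normalised counts in the control of line 5 and 0 in the other 18 libraries.

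IRAK3 gave the tightest response of the brakes. Its counts were 472, 336, 285, 547 and 426 in control and 905, 810.5, 1138, 1191 and 891 with IL-1β, and the lowest IL-1β library exceeded the highest control. This gave a log2-fold change of 1.28 (SE 0.19, 95% confidence interval 0.85 to 1.70, adjusted p = 0.00112), and the rise within a line ran from 0.94 to 1.99 on the log2 scale. The call was made with each line left out in turn. Together with IL1A and IL1B, IRAK3 was 1 of 3 among the 10 genes whose groups did not overlap, as for 19.5% of all tested genes.

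SIGIRR went the other way. It was counted at 164, 143, 292, 193 and 225 in control and 67.5, 79.3, 149.6, 100.3 and 55.8 with IL-1β. All 5 lines fell, and the groups touched only where line 3, the highest of both groups, kept 149.6 with IL-1β against 143 in the control of line 2. The log2-fold change was -1.20 (SE 0.30, 95% confidence interval -1.86 to -0.54, adjusted p = 0.0136). Line 5 contributed the deepest fall, -1.996 against -0.85 to -1.27 in the other lines, and without it the change was -1.003 with an adjusted p of 0.0759.

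In the second batch, 3 other lines were given the same IL-1β treatment. IL1A and IL1B were higher and SIGIRR was lower with IL-1β in 3 of 3 lines, and for these 3 genes the control and IL-1β libraries did not overlap, as for 16.4% of all tested genes. None of the 8 tested genes was DE with limma (0.341% of 16705 genes were), and 3 had an unadjusted p below 0.05, as did 11.4% of all tested genes. With the line as a block, which takes up the differences between lines, 2 of the 8 were DE, IL1A and IL1B, where 5.18% of all genes were. In this batch IL1A and IL1B passed the minimum count only through libraries given IL-1β, with or without IL1Ra. Their place in these counts was thus given by their height in those libraries.

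**Figure D3:**
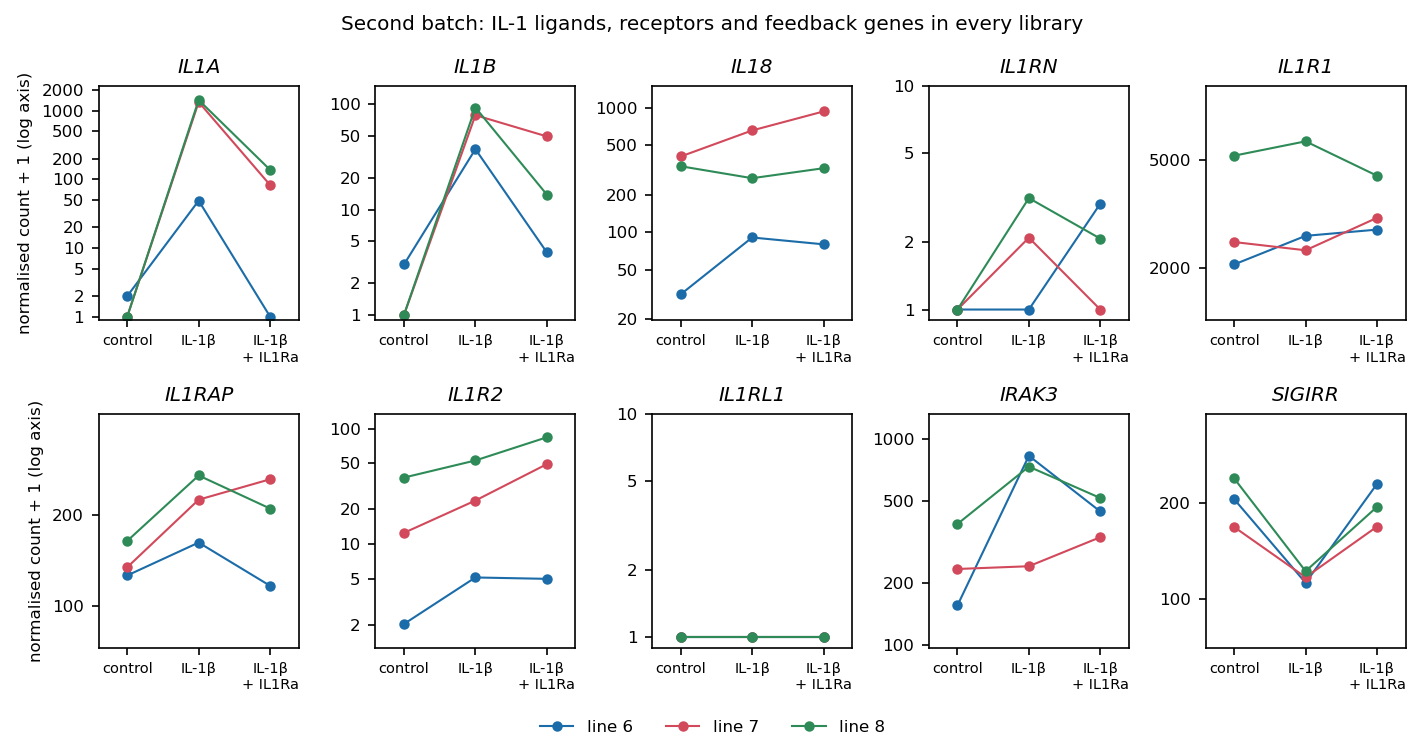
Normalised counts + 1 (log axis, scaled separately for each gene) of the 10 IL-1 system genes in control, IL-1β and IL-1β + IL1Ra libraries of the second batch. Each point is a library and each line joins the libraries of 1 tenocyte line; IL1A and IL1B peak with IL-1β, SIGIRR is lowest with IL-1β in 3 of 3 lines, and IL1R2 is highest with IL-1β + IL1Ra in lines 7 and 8.

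IL1A had 0.991, 0 and 0 normalised counts in the control libraries of lines 6, 7 and 8, and 47.8, 1329.8 and 1422 with IL-1β. With IL-1β, line 6 had far less than lines 7 and 8, yet this library was still well above every control. The mean with IL-1β was at least 311-fold above the floor of 3 counts per library, and the fitted log2-fold change was 8.49 (SE 1.96, adjusted p = 0.137). The adjusted p was 0.0217 with the line as a block, and 0.000834 without line 6, when the log2-fold change was 10.43.

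IL1B had 2.01, 0 and 0 normalised counts in control and 36.4, 77.5 and 91.8 with IL-1β, with no overlap and line 6 again the lowest. This was at least 22.9-fold above the floor, with a fitted log2-fold change of 5.49 (SE 0.95) and an adjusted p of 0.0621, or 0.0212 with the block. Leaving line 6 out gave 6.42 and an adjusted p of 0.0205. Summed with IL1B_1, the counts were 600, 928 and 373 with IL-1β, where line 6 was no longer the lowest, and the log2-fold change was 8.36 (SE 1.34, adjusted p = 0.0543, or 0.0130 with the block).

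SIGIRR was counted at 205, 167 and 238 in control and 111, 116 and 121 with IL-1β. The 3 IL-1β libraries lay close together, below every control. The log2-fold change was -0.79 (SE 0.24, 95% confidence interval -1.35 to -0.23) and did not pass, with an adjusted p of 0.256, or 0.0912 with the block.

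IRAK3 had 154, 232 and 385 normalised counts in control and 826, 240 and 732 with IL-1β. It was higher in lines 6 and 8, while line 7 differed by 0.04 on the log2 scale, so that the groups overlapped (log2-fold change 1.13, SE 0.52, adjusted p = 0.457). Line 6, with the smallest IL1A count under IL-1β, had the largest IRAK3 ratio, 2.41 on the log2 scale.

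The other members were not DE in the second batch in any fit that was run. The median log2-fold change of the 8 tested genes was 0.78, against -0.0084 for all. IL1A and IL1B had their place in this median, too, through their height in libraries given IL-1β. IL18 depended mostly on the line, with 30.8, 405 and 338 normalised counts in control and 89.8, 656 and 271 with IL-1β (log2-fold change 0.63, SE 1.24). IL1R2 likewise ran from 1.03 in line 6 to 36.7 in line 8 among controls, and was higher with IL-1β in each line, at 4.13, 22.9 and 52.1 (0.92, SE 1.44). IL1RAP was higher in 3 of 3 lines (0.61, SE 0.36), with 125, 133 and 163 in control and 161, 223 and 268 with IL-1β. IL1R1 had 2062, 2494 and 5196 in control and 2629, 2325 and 5870 when IL-1β was added (log2-fold change 0.14, SE 0.45, 95% confidence interval -0.88 to 1.16), which became -0.041 when libraries were rescaled to equal sums. IL1RN was listed at 0 in all controls and at 0, 1.10 and 2.15 with IL-1β.

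Addition of IL1Ra to IL-1β was compared with both of the other conditions, which share libraries, so the comparisons are not independent of each other. IL1A and IL1B were lower with IL-1β + IL1Ra than with IL-1β alone in 3 of 3 lines, IL18 was lower in 1 of 3, and SIGIRR was higher in 3 of 3, but no member passed the test in either comparison. Against control, 0 of the 8 tested genes were DE with limma (0.012% of all genes were), also with the block (0.251% of all genes), and 1, IL1B, had an unadjusted p below 0.05, as did 5.67% of all genes. Against IL-1β alone, 0 of the 8 were DE (0% of all genes were), also with the block (0.00599% of all genes), and IL1B and SIGIRR had an unadjusted p below 0.05, as did 2.78% of all genes.

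When the antagonist was present, IL1A was counted at 0, 81.3 and 136 in lines 6, 7 and 8. Line 6 was back at the control level, while lines 7 and 8 stood above every control and below their own IL-1β libraries, by 4.01 and 3.38 on the log2 scale. Against IL-1β alone the log2-fold change was -4.33 (SE 1.96, 95% confidence interval -8.83 to 0.16, adjusted p = 1.00, or 0.466 with the block), the 8th lowest among 16705 genes. Against control it was 4.16 (SE 1.96, adjusted p = 0.910, or 0.278 with the block), and without line 6 it was 6.73 with an adjusted p of 0.00892.

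IL1B was counted at 2.93, 48.4 and 12.9 with the antagonist, above every control library and below the IL-1β library of the same line each time. Groups of IL-1β + IL1Ra and control did not overlap for this gene alone among the 10, as for 11.8% of all tested genes, but in line 6 this rests on 2.93 against 2.01 counts, both below the floor of 3. Its log2-fold change was -2.22 against IL-1β (95% confidence interval -4.40 to -0.04, adjusted p = 1.00) and 3.27 against control (1.09 to 5.44, adjusted p = 0.637). In the sum with IL1B_1 the counts were 7.81, 618 and 134, so that line 7 held 618 of the 928 counts it had with IL-1β alone.

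SIGIRR, with 229, 168 and 194 normalised counts under IL-1β + IL1Ra, lay among the controls and above all IL-1β libraries. It was the only member whose IL-1β + IL1Ra and IL-1β groups did not overlap, as for 6.47% of all tested genes. The log2-fold change was 0.75 against IL-1β (SE 0.24, 95% confidence interval 0.19 to 1.31, adjusted p = 1.00, or 0.418 with the block). Against control it was -0.04 (SE 0.24, 95% confidence interval -0.60 to 0.52), and 0.083 without line 8.

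IL1R2 had 4.00, 48.3 and 83.3 normalised counts with the antagonist, higher than control in 3 of 3 lines (log2-fold change 1.48, SE 1.44, adjusted p = 1.00) and higher than IL-1β alone in lines 7 and 8 (0.56, SE 1.44). The ratio of IL1R2 to IL1R1 was higher than in control by 1.32 on the log2 scale, in 3 of 3 lines with an SD of 0.41 between lines. The exact permutation p was 0.5 over libraries (0.10 at the lowest for 3 against 3) and 0.25 within lines, the lowest that 3 pairs allow. It was higher than with IL-1β alone by 0.54, in 2 of 3 lines (exact permutation p = 0.6), and in IL-1β against control by 0.78, in 3 of 3 lines (SD 0.40, exact permutation p = 0.5, or 0.25 within lines).

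IRAK3, at 443, 332 and 515, was between control and IL-1β in lines 6 and 8 and above both in line 7 (log2-fold change against control 0.82, against IL-1β -0.31, SE 0.52 each). IL1RAP, at 115, 261 and 208, had log2-fold changes of 0.40 and -0.20 (SE 0.36 each), and IL18, at 79.0, 932 and 326, of 0.83 and 0.20 (SE 1.24 each). IL1R1, at 2772, 3064 and 4382, had 0.16 and 0.02 (SE 0.45 each), with a sign against IL-1β that turned when line 6 or 7 was left out. IL1RN had 1.98, 0 and 1.08, below the floor of 3 counts in every library of the second batch, so its difference from IL1A restates that of IL1A.

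**Figure D4:**
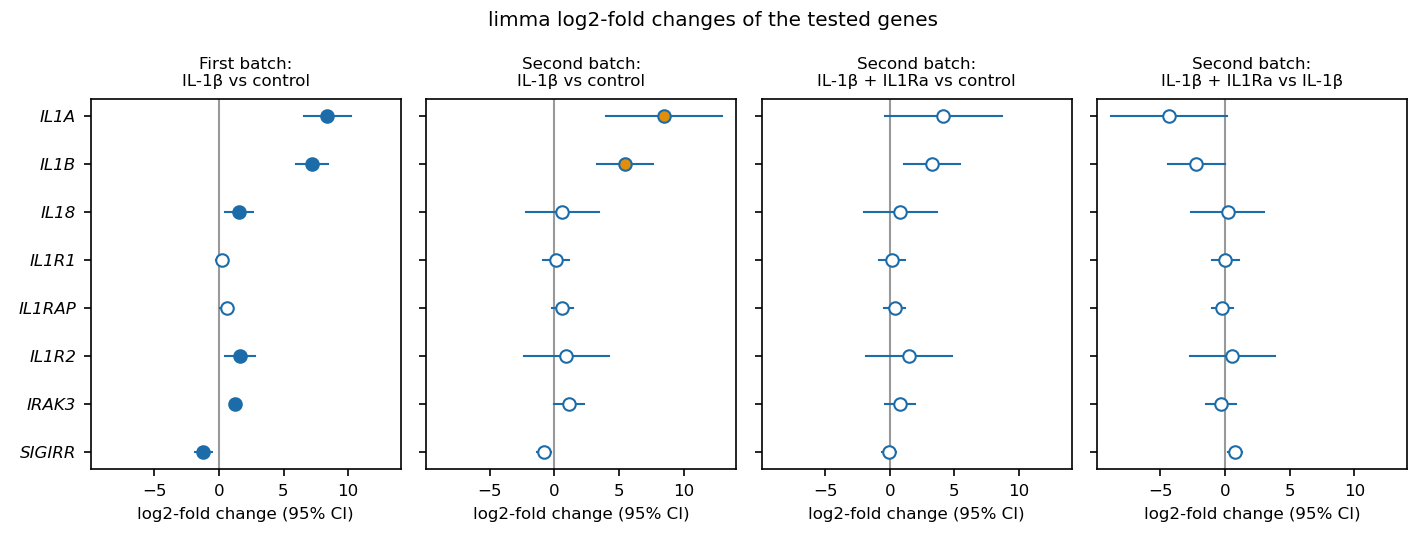
Log2-fold changes of the 8 tested genes with 95% confidence intervals (horizontal axis) in the 4 comparisons. Filled blue points are DE, orange points are DE only with the line as a block (IL1A and IL1B, IL-1β against control in the second batch), and open points are neither. In the first batch 6 points are filled, and intervals are wider in the second batch except for SIGIRR.

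Further genes of the pathway were read from lists of its parts. Of 7 other ligand and antagonist genes of the family, 5 were in the tables and 1 was tested. This was IL33, an alarmin, which had 198 to 957 normalised counts in control and 37.1 to 542 with IL-1β in the first batch, was lower in 4 of 5 lines and fell (log2-fold change -2.06, SE 0.69, adjusted p = 0.0464). In the second batch it was higher with IL-1β in 2 of 3 lines (2.31, SE 2.16, adjusted p = 0.80). Of 5 other receptor genes, IL1RL2 alone was tested and was not DE (0.29 in the first batch).

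Of 18 genes that act just below the receptor, all tested, 2 rose and 1 fell in the first batch, where 12.8% of all tested genes were DE, with a median log2-fold change of -0.08. IRAK2, a kinase of the receptor complex, rose from 1046 to 2109 normalised counts in control to 4105 to 5572 with IL-1β (log2-fold change 1.76, SE 0.20, adjusted p = 0.000254). SQSTM1 (p62), a scaffold that binds TRAF6, rose by 1.57 (SE 0.17, adjusted p = 0.000193), and PELI2, a ubiquitin ligase of IRAK proteins, fell by 1.67 on the log2 scale (SE 0.35, adjusted p = 0.00606). MYD88, IRAK1, IRAK4 and TRAF6 were not DE. Without overlap, as for 19.5% of all tested genes, IRAK1 was lower with IL-1β (7644 to 8453 in control, 4247 to 6299 with IL-1β). IRAK4 was likewise apart but higher (796 to 901 in control, 980 to 1244 with IL-1β). TOLLIP was apart and higher as well (5148 to 6252 in control, 6572 to 10342 with IL-1β). MAP3K7 was apart and lower (1943 to 2754 in control, 1365 to 1703 with IL-1β), and neither was DE. At an unadjusted p below 0.05, 5 of the 18 were higher and 4 lower, where 39.5% of all tested genes passed in either direction. None of the 18 was DE in the second batch with limma (0.341% of all genes were), and 3 had an unadjusted p below 0.05, as did 11.4% of all tested genes. With the block 1 was, SQSTM1 (1.52, adjusted p = 0.0202), where 5.18% of all genes were. SQSTM1 was higher in 3 of 3 lines with no overlap, as for 16.4% of all tested genes.

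Of 14 genes of cytokine maturation and release, 10 were tested in the first batch and 2 rose, where 4.91% of all tested genes did. NLRP3, the sensor of an inflammasome that activates caspase-1, had 36.8 to 461 normalised counts in control and 917 to 4848 with IL-1β (log2-fold change 3.76, SE 0.68, adjusted p = 0.00279). MEFV, which encodes pyrin, another inflammasome sensor, went from 1.02 to 3.49 counts to 24.5 to 47.3 (3.85, SE 0.36, adjusted p = 9.4e-05). It passed the minimum count through its IL-1β libraries alone, whose mean was 11.5 times the floor of 3 counts, and its control mean of 1.54 lay below that floor. In the second batch both were higher with IL-1β in 3 of 3 lines and were DE only with the block, at adjusted p = 0.0174 for NLRP3 and 0.0203 for MEFV. With the block 5.18% of all genes were DE there. IL18BP, which encodes the soluble binding protein of IL-18, was not DE. Of 7 genes of receptor shedding, 6 were tested and 0 were DE in any comparison. With limma, 3 had an unadjusted p below 0.05 in the first batch, as did 39.5% of all tested genes, and 0 in the others.

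**Figure D5:**
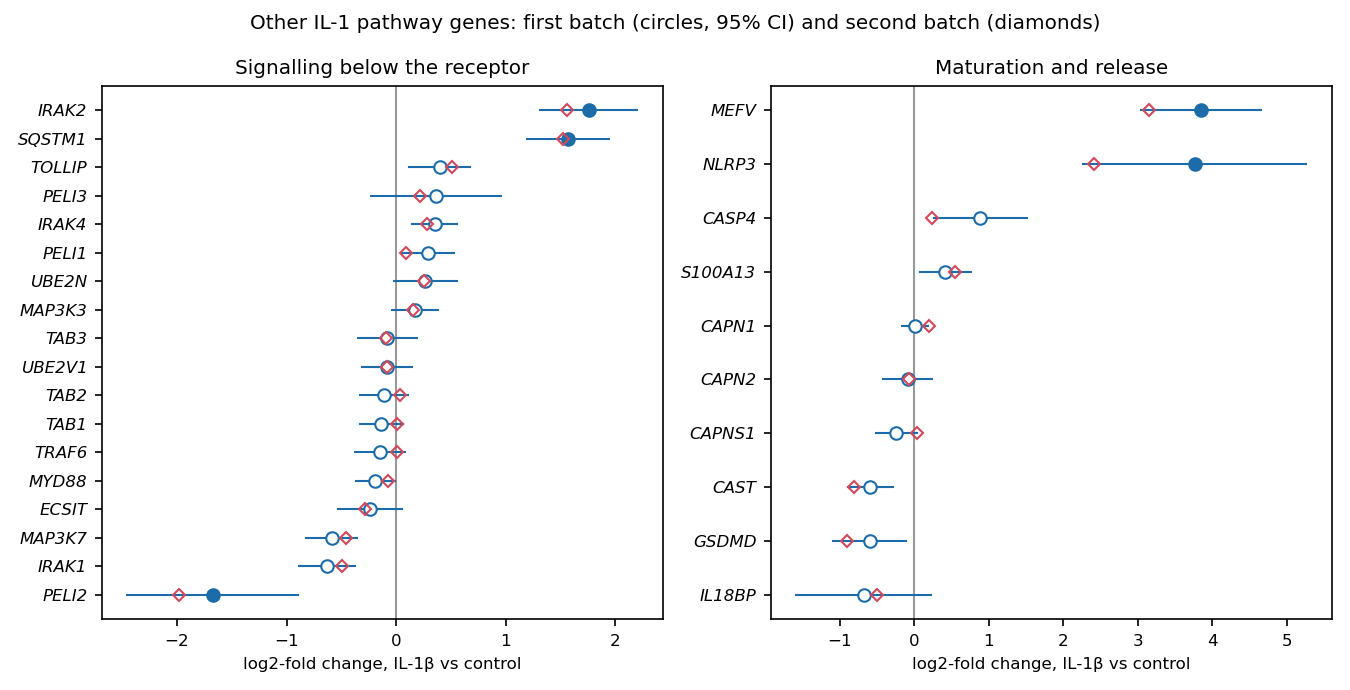
Log2-fold changes with IL-1β against control of the tested genes that act just below the receptor (left) and in maturation and release (right). Circles with 95% confidence intervals are the first batch (filled where DE) and red diamonds the second batch, where IRAK2 (1.56), SQSTM1 (1.52), MEFV (3.14), NLRP3 (2.42) and PELI2 (-1.99) lie on the same side of 0 as in the first batch.

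The markers of the cells were looked at beside these changes. Of 8 tested tenocyte markers, 6 fell in the first batch, where 7.9% of all tested genes did, among them SCX (log2-fold change -4.25), COMP (-4.08), MKX (-3.95) and THBS4 (-3.16), each at an adjusted p between 0.0019 and 0.0396. In the second batch 0 of 8 were DE, with 0 at an unadjusted p below 0.05, and 2 with the block, SCX and COMP, where 5.18% of all genes were. DCN, the gene of the proteoglycan decorin, was higher with IL-1β in 5 of 5 lines of the first batch (0.73, adjusted p = 0.0626) and in 3 of 3 of the second, there without overlap (1.61, adjusted p = 0.498). Of 14 leukocyte markers, 3 were tested in the first batch and 1 rose, where 4.91% of all tested genes did. This was CD68 (2.64, SE 0.47, adjusted p = 0.00265), a lysosomal protein of macrophages that fibroblasts also make. CD68 in the second batch was DE only with the block (1.89, adjusted p = 0.0369). The summed leukocyte markers ranged from 347 to 2396 normalised counts in control and from 650 to 4072 with IL-1β, and the sum was higher with IL-1β in 5 of 5 lines. The second-batch sum ranged from 620 to 1605 in control, 1067 to 3546 with IL-1β and 1101 to 2519 with IL-1β + IL1Ra, and was higher with IL-1β in 3 of 3 lines. Its part in the results was not tested. S100A8, a calcium-binding protein gene of myeloid cells, was at 0 in the controls of both batches and ranged with IL-1β from 3.28 to 43.6 in the first batch and from 0 to 26.6 in the other. S100A9, its partner, was at most 0.823 in control and 1.06 to 15.5 with IL-1β in the first batch, and in the other it was at 0 in control and at least 1.07 with IL-1β. PTPRC, which defines leukocytes, was at most 3.64 in the first batch and at most 6.46 in the second, and AIF1 and CD79A were at 0 throughout. Of 8 endothelial and epithelial markers, 3 were tested in the first batch and CDH1 fell (-4.75, adjusted p = 0.00213), where 7.9% of all tested genes did. PECAM1 went the other way, from 1.11 to 20.8 normalised counts in control to 7.81 to 73.2 with IL-1β. PECAM1 was DE only with the block, where 16.2% of all tested genes were. VWF, another endothelial marker, went down like CDH1, from 9.53 to 44.6 in control to 0.96 to 15.0 with IL-1β, and was not DE.

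IL1A, IL1B and IL1RN lie in 1 gene cluster and IL1R1, IL1R2 and IL1RL1 in another, in the gene order of the TB-T2T assembly, so the genes around them were compared. From SLC20A1 to PSD4, the stretch that holds the ligands, 12 other genes lie besides the IL1B loci, of which 10 were in the tables and 3 were tested. In the first batch 0 of them were DE with limma, with 1 at an unadjusted p below 0.05, as for 39.5% of all tested genes. SLC20A1 had a log2-fold change of 0.84 (adjusted p = 0.00606), CKAP2L 0.45 and PSD4 -0.50, beside 8.40 for IL1A. Of the 4 neighbours of the receptor genes, 2 were tested, IL1RL2 (0.29) and MAP4K4 (0.56), and 0 were DE with limma, with 1 at an unadjusted p below 0.05, beside the same 39.5% of all tested genes. These neighbours were chosen after the values were seen.

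The genes whose pattern was most like each DE member were found by the root mean square difference of centred log2 values over the 10 libraries of the first batch, among 12487 genes, which is a description over libraries of paired lines. Nearest to IL1A were the chemokine genes CXCL6 (0.89 log2 units) and CCL20 (0.95) and the growth factor gene NRG1 (0.92), against a median of 4.41, and in the second batch they were 9th, 4th and 15th nearest of 12350. Nearest to IL1B were GPR84 (0.97), MS4A7 (0.99) and IL1B_1 (1.06), which were 7th, 319th and 133rd nearest in the second batch. Nearest to IRAK3 were DEPTOR (0.18), RHOBTB3 (0.23) and KMT5C (0.24), which were 7057th, 5th and 1593rd nearest in the second batch. IL18 was closest to DDX58 (0.36), TNFSF9 and MOCOS, IL1R2 to CPNE8 (0.45), GRASP and ICA1, and SIGIRR to NEDD4 (0.18), LRRC49 and GLTP, and of these 9 only DDX58 was among the 100 nearest in the second batch.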

How the data were processed

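RNA was extracted with Tri-reagent and made into stranded mRNA libraries (TruSeq) for NovaSeq sequencing. The authors assigned reads to transcripts of EquCab3.0 with Salmon and combined transcripts into genes by tximport. The authors deposited a signal per gene, counts divided by DESeq2 (1.36, in R 4.2.1) normalisation factors, with 1 table for each batch. The values are not whole reads, so no count model was used, and tests were made only within a batch. Sums per library ran from 43393903 to 49197980 and from 24964149 to 34602014 in the batches. An exact 0 can be a failed estimate.

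Values were log2-transformed with a pseudocount of 1 and fitted with limma 3.58.1 (trend, R 4.3.3) over all genes past the minimum of 10 in 5 or 3 libraries; the second batch was fitted over its 3 conditions. Scripts were tested on simulated data. Ratios used 2-sided exact permutation tests. Libraries of 1 line come from 1 horse, and their deviations from the group means correlated within lines (0.35 to 0.58 over 5 pairs in the first batch, 0.54 to 0.79 over 9 in the second, against at most 0.29 between lines), so fits with the line as a block were also made. Of the names, 23423 of 29196 were matched in RefSeq (TB-T2T). The 10 genes and the lists were chosen with earlier results of these data known. Named beside them were, from each list, up to 4 DE genes with the largest change in the first batch, any DE in the second, and the 3 genes most like each DE member. Alternatives were other pseudocounts, filters, scalings, fits without trend, the block, fewer conditions, leaving out each line and, chosen after seeing the data, summing IL1B with IL1B_1.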

Additional observations from a re-analysis of the deposited data

Results flagged for a closer look

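Of 32 sets of 5 values in the first batch, 4 held a value far from the others. Its gap to its neighbour was over 0.71 of the range of the set, where chance gives about 5% of independent sets. These sets share genes and libraries, and the flagged IL1RL1 sets rest on the same library. The number flagged therefore cannot be set against that rate. IL1R2 in the control of line 5 stood at 4.00 on the scale of log2(normalised count + 1), above the other 4 controls. IL1RL1 in the same library stood at 1.66, the only library with reads of this gene, which makes its log2 ratio of IL-1β to control in line 5 -1.66. The log2 ratio of IL1R2 to IL1R1 with IL-1β was -10.02 in line 3, below the other 4 lines.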

How the results depend on the processing

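In the first batch the number of DE genes among the 10 was 6 in the reported fit and in each alternative with all lines except the filter of 50, which left IL1R2 untested and gave 5. With no filter the 6 were not the same, since IL1R2 was lost and IL1RN was called. The number ran from 3 to 6 with a line left out, the lowest without line 5. IL1A, IL1B and IRAK3 were DE in each of these fits, although the fitted change of IL1B moved from 7.94 to 5.17 as the pseudocount went from 0.5 to 5. In the second batch the 0 DE genes of IL-1β against control became 2 with the replicate block, also 2 with IL1B summed with IL1B_1 and the block, and 0 to 2 with a line left out (2 without line 6). For IL-1β + IL1Ra against control the number was 0 to 1 with a line left out (1, IL1A, without line 6). The block changed no call of a member in the other comparisons. Over all genes it raised the number of DE genes from 57 to 865 for IL-1β against control, from 2 to 42 for IL-1β + IL1Ra against control and from 0 to 1 against IL-1β.

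Rescaling to equal sums shifted the median of all genes to -0.19 for IL-1β against control in the second batch and turned IL1R1 to -0.041. With a line left out, SIGIRR for IL-1β + IL1Ra against control ran up to 0.083 and IL1R1 against IL-1β down to -0.17 (-0.012 without line 6). The cause was not tested. Sparse counts limit IL1RN, IL1RL1 and IL1R2, and 3 lines with large differences between them limit the second batch.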
